A study of Homo sapiens with 4 samples.

Results

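Mitochondrial ribosomal proteins are the nuclear-encoded proteins of the mitoribosome, the ribosome inside mitochondria. The genes described here are those whose symbol in the deposited table starts with MRPL or MRPS, followed by a number and at most 1 letter. This rule uses names only and found 77 genes among 19826 gene rows. Of these, 50 encode proteins of the large subunit (all MRPL genes, with MRPS30 and MRPS18A, whose products sit in that subunit) and 26 encode proteins of the small subunit. The remaining gene, MRPS36, encodes a part of the oxoglutarate dehydrogenase complex and was kept apart in the subunit counts.

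The study sequenced polyadenylated RNA of BE(2)C:MYCN-ORF cells, a line made from the human neuroblastoma line BE(2)C that, by its name, carries a MYCN open reading frame. All cells received an siRNA and a miRNA mimic and were harvested 48 hours after transfection. The 4 groups were siCon with miRCon (both controls), siCon with let-7a, siMYCN with miRCon, and siMYCN with let-7a, with 1 library each. Where 4 values follow each other below, they stand in this order. No group had a replicate, so a difference between 2 libraries has no replicate check, and the labels do not say whether the libraries came from separate cultures.

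The mitoribosome translates the few mRNAs of the mitochondrial genome, which encode core subunits of the respiratory chain and the ATP synthase. Its proteins are made in the cytosol and imported, and they assemble on ribosomal RNAs transcribed from mitochondrial DNA. Some of them have counterparts in bacterial ribosomes, while others are found only in mitochondria. MYC family transcription factors are known to activate many genes of ribosome and mitochondrial biogenesis, and let-7 miRNAs lower mRNAs that carry matches to their seed.

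Back-transformed from natural logs, the deposited values resembled TPM, a share of transcripts corrected for transcript length, and they are called TPM-like values below. Each library summed to between 855811 and 862049. Such values keep no read depth, which is therefore unknown. Transcripts of the mitochondrial genome (13 mRNAs) made up 31.6%, 32.1%, 28.4% and 29.3% of the 4 totals, so the remaining genes share a larger part of the scale in both siMYCN libraries. Among the neuroblastoma markers, DBH was at 415, 475, 346 and 389.7, HAND2 at 272, 269, 238 and 232, and ISL1 at 128, 116, 88.3 and 65.1. GATA3 was at 75.3, 79.8, 57.4 and 73.2, CHGA at 687, 847, 489 and 1157, and TH, the low one, at 6.01, 6.47, 11.6 and 10.7. DBH, HAND2, ISL1 and GATA3 were lower with siMYCN in both pairs, TH was higher in both, and CHGA went both ways. Summed fibroblast markers came to between 152 and 198, epithelial markers to between 7.27 and 10.8, and blood markers to between 0.0231 and 0.351, with CDH1 and HBB at 0 in all 4 libraries. ISL1 fell with siMYCN (log2 fold change -0.68 over both pairs, adjusted p = 0.0434 by limma), and the part of these markers in the results below was not tested. MYCN, the target of the siRNA, was at 1449 and 1433 with siCon and at 1238 and 1197 with siMYCN, a log2 fold change of -0.24 ± 0.047 over both pairs (SE, n = 4 libraries, adjusted p = 0.0584 by limma, from 0.0203 to 0.417 over the alternatives). The siRNA's own target thus did not pass the test on the values as deposited, with genes of a mean of at least 5 tested. With only genes of a mean of at least 20 tested, MYCN passed (adjusted p = 0.0441 by limma), as it did with either rescaling described below. The deposited values do not separate the introduced reading frame from the cells' own gene.

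The let-7a mimic acts through its seed, bases 2 to 8, shown in capitals in the mature sequence from RefSeq (build GRCh38.p14). Matches to this seed are rare among mitochondrial ribosomal protein genes. In the longest annotated 3' UTR of each gene (GENCODE release 29, GRCh38), 4 of 77 members (5.19%) held a match of at least 7 bases (CTACCTC or TACCTCA, counted on the transcript strand), against 21.0% of 8915 tested genes with a 3' UTR. In the transcript with the longest coding sequence of each gene, 3 of 77 members (3.90%) held such a match, against 16.3% of tested genes. The members' 3' UTRs were also shorter, with a median of 595 bases against 1711. The sites of MRPS33, MRPS25, MRPS11 and MRPL42 are shown because these 4 genes hold the match in their longest 3' UTR. MRPL48 is added because it held a match in a shorter 3' UTR, of another annotated transcript, and its let-7a differences are described below. Capitals mark the bases paired with the seed, or, in MRPS33, the 8-base match.
hsa-let-7a-5p: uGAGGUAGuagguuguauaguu
MRPS33 (chr7:141005836-141005865, minus strand): ggttagcaagagaaatactccCTACCTCAt
MRPS25 (chr3:15049525-15049554, minus strand): cagaaacatgtgtgtggcttccCTACCTCc
MRPS11 (chr15:88478484-88478513, plus strand): ccaaattggagctttttgccacCTACCTCt
MRPL42 (chr12:93504667-93504696, plus strand): cctttaccataatgtgtttcttCTACCTCc
MRPL48 (chr11:73860449-73860478, plus strand): cattcaccaaattctatagcttCTACCTCc

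MYC family proteins bind the E-box CACGTG, a word that reads the same on both strands. RefSeq promoters (250 bases before to 50 after a gene's start, GRCh38.p14) were found for 68 members. MRPL2, MRPL10, MRPL13, MRPL15, MRPL21, MRPL23, MRPL35, MRPS28 and MRPS36 were not among them. The E-box stood in at least 1 promoter of 9 of these 68 genes (13.2%), against 13.3% of 7256 tested genes and 8.77% of all 27305 genes in the promoter table. The ETS word GGAAGTG, on either strand, was in 17.6% of members and 19.8% of tested genes. The E-box windows of MRPL45 and MRPL22 are shown because these genes are described below, and those of MRPS2 and MRPL36 because their E-boxes lay closest upstream of the start, both centred 53 bases before it. Capitals mark the E-box.
MRPL45 (chr17:38297023-38297052, plus strand): cactcccgcgagCACGTGcgcgtcctcgct
MRPL22 (chr5:154940885-154940914, plus strand): ttttcggaagccCACGTGctttcggccttt
MRPS2 (chr9:135499897-135499926, plus strand): cgacggccaggtCACGTGactggggagcga
MRPL36 (chr5:1799876-1799905, minus strand): acgtgggcacgcCACGTGaccccccccccc

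Nearly all mitochondrial ribosomal protein genes were expressed at moderate to high levels in all 4 libraries. Of 77 members, 73 had a mean TPM-like value of at least 5 and were tested. The mean was 100 or more for 21 of them, from 50 to 100 for 24, from 20 to 50 for 25 and from 5 to 20 for 3. The highest level belonged to MRPL12, a protein of the flexible stalk that recruits translation factors, at 349, 329, 328 and 296. MRPS34, a small-subunit protein without a bacterial counterpart, followed at 310, 313, 331 and 305. These values overlap those of MRPL12, so the order of the pair was not the same in every library. Next came MRPL20, at 257, 287, 286 and 272. MRPS24, the counterpart of the bacterial protein uS3, was at 250, 195, 234 and 257, and MRPL3, whose counterpart lies near the peptidyl transferase centre, was at 207, 198, 210 and 223. MRPS24 and MRPL3 overlapped each other, and MRPL20 overlapped MRPS24 by a narrow margin, its lowest library being at 256.9 and the highest of MRPS24 at 257.

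**Figure D1:**
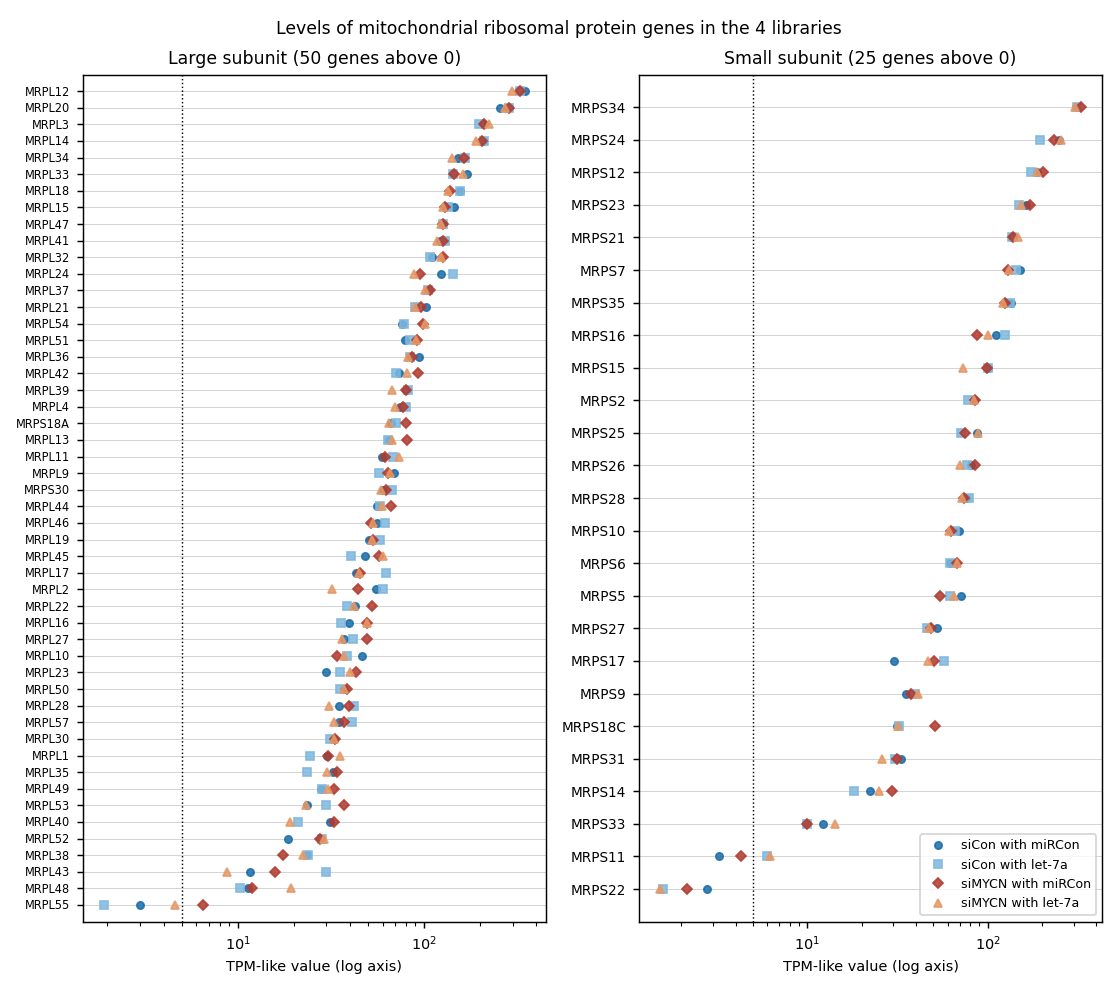
TPM-like values (log axis) of the large-subunit genes (left) and small-subunit genes (right) in the 4 libraries, ordered by mean, with MRPS18B (0 in every library) and MRPS36 left out. The dotted line marks a value of 5. For most genes the 4 libraries lie close together, and the genes with the widest spread, such as MRPL43 and MRPL55, sit in the lower part.

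Below the filter were 4 members. MRPS18B was listed at 0 in every library. MRPS22, a small-subunit protein particular to mitochondria, was at 2.79, 1.58, 2.16 and 1.52. MRPL55 was at 2.98, 1.91, 6.54 and 4.63, and MRPS11 at 3.22, 5.96, 4.30 and 6.23. MRPL55 was higher in both siMYCN libraries than in both siCon libraries, and MRPS11, whose 3' UTR carries a seed match, was higher in both let-7a libraries than in both miRCon libraries. None of these 4 was tested, and at such levels a difference of a few TPM-like units is a large fold change.

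The summed level of the 77 genes differed little between libraries. It was 6336, 6285, 6446 and 6149, or between 0.716% and 0.753% of each library's total. Large-subunit genes summed to 3994, 4040, 4113 and 3883 and small-subunit genes to 2303, 2207, 2288 and 2225. The ratio of these sums was 1.74, 1.83, 1.80 and 1.75, and both its lowest and its next lowest value came from the libraries with neither and with both treatments. With the transcripts of the mitochondrial genome left out of the total, the members' share was 1.08%, 1.07%, 1.05% and 1.01%, with both siMYCN libraries below both siCon libraries. In such bulk RNA, fewer cells of a type and less RNA per cell cannot be told apart.

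Single genes were also steady over the 4 libraries. A gene's highest library was less than 25% above its lowest for 43 of 73 members (58.9%), against 34.3% of all 9324 tested genes, and at least 1.5 times the lowest for 10 members (13.7%), against 29.6%. These figures move with expression. Among genes with a mean of 50 or more, the range was this narrow for 80.0% of 45 members and 54.7% of 2700 genes. Under a mean of 50, the shares were 25.0% of 28 members and 26.1% of 6624 genes. MRPL37, a large-subunit protein particular to mitochondria, and MRPL47, one with a bacterial counterpart, are examples of the steady members, named after their values were seen. MRPL37 was at 106, 105, 108 and 101. MRPL47 was at 126, 127, 127 and 124. The 1 member that ranged at least 2-fold was MRPL43, from 8.80 to 29.9. No test was made of the difference between members and other genes.

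**Figure D2:**
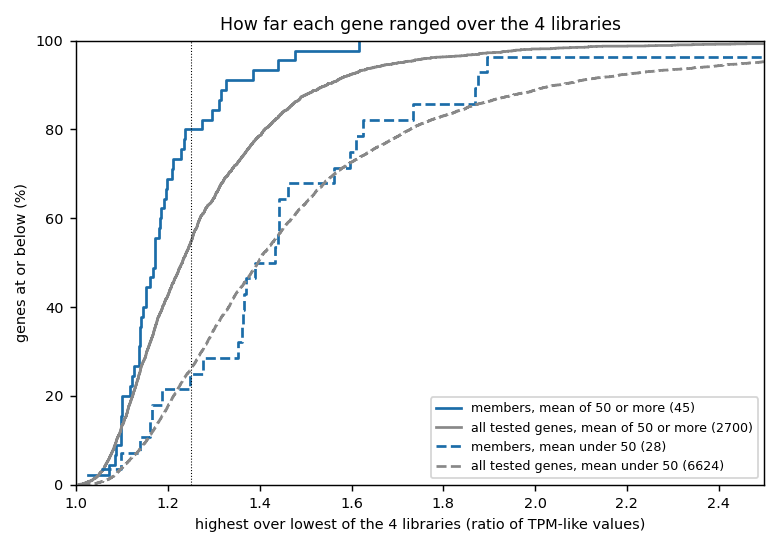
Cumulative share of genes (vertical axis, percent) by the ratio of the highest to the lowest of the 4 libraries (horizontal axis), for members (blue) and all tested genes (grey), at a mean TPM-like value of 50 or more (solid) and under 50 (dashed). Where the highest library is 25% above the lowest (dotted line), the solid curves stand at 80.0% and 54.7% and the dashed curves at 25.0% and 26.1%.

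The siMYCN effect asks how these genes change when MYCN is targeted, once with the control mimic and once with let-7a, in pairs that share no library. Each fold change was computed as a difference of log2(value + 1), which understates changes of low genes, and positive values mean higher with the treatment. No mitochondrial ribosomal protein gene passed the test: 0 of 73 were called higher and 0 lower by limma, an additive model of siRNA and mimic over all 9324 tested genes with Benjamini-Hochberg adjustment, where 2.07% of all tested genes were called higher (193) and 1.36% lower (127). Over all tested genes this split turned to 342 higher and 408 lower with values rescaled by median ratios, and to 199 and 260 with values rescaled without mitochondrial genome transcripts. With no filter, or without limma's trend, 0 genes of any kind were called higher and 0 lower. At an unadjusted p under 0.05 in limma, 11 of 73 members (15.1%) passed, against 26.4% of all tested genes. The median member had a log2 fold change of 0.055 in the miRCon pair and -0.027 in the let-7a pair, beside 0.069 and 0.048 for all tested genes. Both directions were present, with 27 members (37.0%) above 0 and 18 (24.7%) below 0 in both pairs, where 43.2% and 27.4% of all tested genes were.

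Few members differed in size and direction alike in both pairs. With a larger value at least 25% above the smaller one in each pair, there were 2 higher (2.74%, background 10.7%) and 2 lower (2.74%, background 5.79%). At 1.1-fold there were 7 higher (background 25.2%) and 4 lower (background 14.5%), and at 1.5-fold 0 higher (background 2.85%) and 0 lower (background 1.61%). The lower ones at 25% were MRPL24 and MRPS16. MRPL24, a large-subunit protein whose bacterial counterpart acts early in subunit assembly (chromosome 1, 156737303 to 156741590, GRCh38, minus strand), was at 123 and 144 in the siCon libraries (miRCon, then let-7a) and at 95.7 and 88.8 in the siMYCN libraries. Both siMYCN libraries were below both siCon libraries. For genes named here for a change shared by both pairs, such an order is likely from the way they were chosen. Its share over all tested genes was not counted. The log2 fold change of MRPL24 was -0.36 in the miRCon pair and -0.69 in the let-7a pair, or -0.53 ± 0.10 over both (SE from limma's additive fit, n = 4 libraries, adjusted p = 0.0599). This p was 0.0219 with values rescaled by median ratios, 0.0405 with values rescaled without mitochondrial genome transcripts, 0.0461 at a mean of at least 20 and 0.422 with no filter, the highest of the 8 alternatives, so the call for MRPL24 rests on the scaling and the filter.

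MRPS16, a small-subunit protein mutated in a rare mitochondrial disease (chromosome 10, 73248843 to 73252693, minus strand), was at 112 and 125 with siCon and 87.1 and 100 with siMYCN. Both siMYCN libraries were again the lower ones, with log2 fold changes of -0.36 and -0.32 and -0.34 ± 0.077 over both (SE, n = 4 libraries, adjusted p = 0.0714 by limma). Over the alternatives its adjusted p ran from 0.0362, with values rescaled by median ratios, to 0.369, with no filter. Its exons overlap DNAJC9 on the same strand and an antisense RNA, and 3 pseudogene copies are annotated, so reads may have been divided among them. MRPL2, whose counterpart lies close to the peptidyl transferase centre, was at 55.1 and 60.01 with siCon and 44.1 and 32.1 with siMYCN. Its log2 fold changes were -0.32 and -0.88 (adjusted p = 0.0921 by limma, from 0.0430 with values rescaled by median ratios to 0.509 with no filter). The low library for MRPL2 was siMYCN with let-7a. Exons of MRPL2 overlap KLC4 on the other strand, and 1 pseudogene copy is annotated.

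The genes at least 25% higher in both pairs were MRPL54 and MRPS14. MRPL54, a large-subunit protein particular to mitochondria (chromosome 19, 3762664 to 3768575, plus strand), was at 76.6 and 77.9 with siCon and at 98.9 and 102 with siMYCN. The libraries with the same siRNA lay close together, and the log2 fold changes were 0.37 and 0.38 (0.37 ± 0.080 over both, SE, n = 4 libraries, adjusted p = 0.0673 by limma). MRPS14 (chromosome 1, 175010789 to 175023425, minus strand), the counterpart of a bacterial protein of the small-subunit head, was at 22.4 and 18.2 with siCon and at 29.3 and 25.1 with siMYCN. Its log2 fold changes were 0.38 and 0.44 (adjusted p = 0.119 by limma), and its exons overlap CACYBP on the other strand. With either rescaling, MRPL54 and MRPS14 stayed above 0 in both pairs but 0 members were 25% higher in both. The members 25% lower in both then numbered 3, with MRPL2 added to MRPL24 and MRPS16.

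The other members with the largest shared differences stood under a 25% difference in at least 1 pair. MRPL16, whose counterpart helps position tRNA, was at 39.8 and 35.8 with siCon and at 49.6 and 49.7 with siMYCN. Its log2 fold changes were 0.31 and 0.46 (limma's adjusted p = 0.0975). MRPL45, which lies at the exit of the peptide tunnel and ties the ribosome to the inner membrane, was at 48.4 and 40.7 with siCon and 57.4 and 60.2 with siMYCN, with log2 fold changes of 0.24 and 0.55. MRPL42 had 0.34 and 0.19, and MRPL32, which the m-AAA protease trims before assembly, had 0.20 and 0.19. In all of these genes both siMYCN libraries were above both siCon libraries, an order that their choice by a shared rise makes likely. On the lower side, MRPL18 had -0.17 and -0.23, MRPS7 -0.21 and -0.12, and MRPS35 -0.12 and -0.14. None of these had an adjusted p under 0.05 by limma in any of the 8 alternatives.

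**Figure D3:**
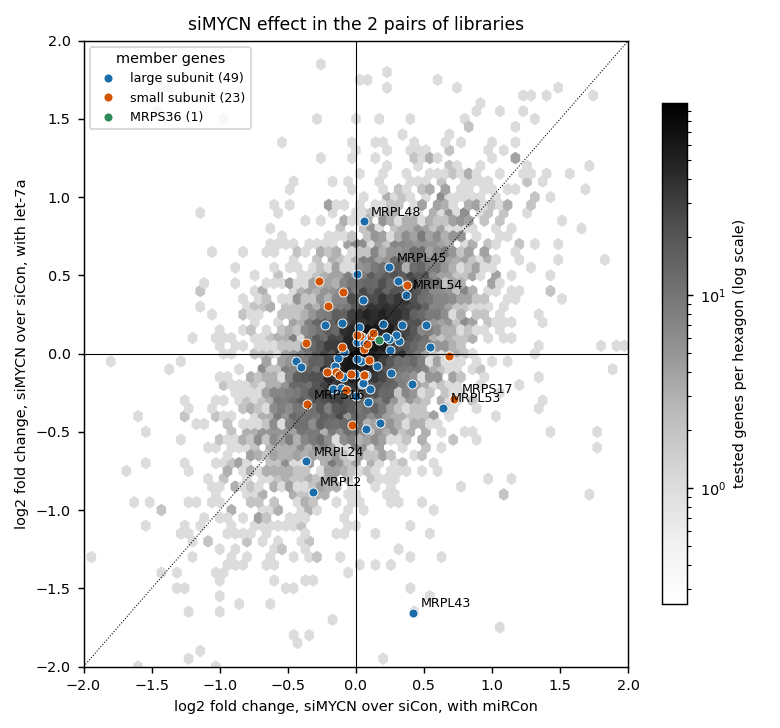
Log2 fold change with siMYCN in the pair of libraries with miRCon (horizontal) and in the pair with let-7a (vertical), for all tested genes (grey hexagons, darker for more genes; 26 lie outside the axes) and for the 73 tested members (coloured by subunit). Most members sit near the origin, with MRPL24 and MRPL2 lower in both pairs, MRPL54 and MRPL45 higher in both, and MRPL43 far off the dotted line of equal effects.

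The ranking of the members in one pair told little of that in the other. Over the 73 members, which come from the same libraries and are no independent replicates, Pearson's r between the pairs' log2 fold changes was 0.045 and Spearman's rho 0.13, beside 0.53 and 0.53 over all 9324 genes. Among the 45 members with a mean of 50 or more, r was 0.40, beside 0.73 for the 2700 genes of that level. Both subunits had medians near 0. Over both pairs the median was -0.0066 for 49 large-subunit genes and 0.044 for 23 small-subunit genes. For 44 genes with a bacterial counterpart it was 0.012 and for 28 genes particular to mitochondria 0.036. Members with an E-box had log2 fold changes over both pairs from -0.079 to 0.40, with a median of 0.094 in 9 genes, and those without one had a median of 0.029 in 55 genes. MRPL45 was the highest of the E-box genes. MRPL22 had 0.29 and 0.12, MRPS2 0.032 and 0.11, and MRPL36 -0.13 and -0.027 in the miRCon and let-7a pairs. MRPS36, the gene kept apart from both subunits, was at 39.6, 38.5, 44.7 and 41.1, which gave 0.17 and 0.090 with siMYCN (limma's adjusted p = 0.465). These are descriptions, and no difference between the classes was tested.

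Other genes of mitochondrial translation gave a frame for these values. The mitoribosome has further subunits with other symbols, and 5 of the 6 measured were below 0 in both pairs (background 27.4%). Their median was -0.19 over both pairs. These 6 genes come from the same 4 libraries, and the count was not tested. ICT1, a peptidyl-tRNA hydrolase built into the large subunit, was at 67.3 and 73.2 with siCon and at 56.9 and 55.3 with siMYCN, which gave -0.24 and -0.40 as log2 fold changes (limma's adjusted p = 0.118). GADD45GIP1, at the tunnel exit, had -0.17 and -0.17, while PTCD3, a small-subunit protein at the mRNA entry, had 0.18 and 0.39. No gene of this list was called by limma (0 higher, 0 lower), with or without rescaling. Its median was -0.25 with either rescaling.

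Assembly factors of the mitoribosome had a median of 0.035 in 23 genes and no call by limma (0 higher, 0 lower). The largest shared differences were those of METTL17 (0.74 and 0.51), MTERF4 (0.49 and 0.98, adjusted p = 0.0683 by limma) and the rRNA methyltransferase FTSJ2 (0.28 and 0.42). Translation factors had a median of -0.046 in 15 genes with 0 called. Their largest shared differences were those of MTIF2, an initiation factor (-0.15 and -0.42), MTRF1 (0.31 and 0.13) and MTFMT, which formylates the initiator tRNA (-1.29 and -0.056). Genes of mitochondrial transcription and RNA processing had a median of 0.0079 in 16 genes with 0 called, and TFB2M, a transcription factor of mitochondrial DNA (0.43 and 0.36), MTERF1 (0.37 and 0.48) and HSD17B10 (0.27 and 0.27) had the largest shared differences.

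Among mitochondrial tRNA synthetases, 1 of 17 was called higher and 0 lower by limma, and their median was 0.036. With either rescaling, 1 was called higher and 1 lower. SARS2, the mitochondrial seryl-tRNA synthetase, rose. It was at 3.63 and 2.74 with siCon and at 9.79 and 9.80 with siMYCN, which gave 1.22 and 1.53 as log2 fold changes (limma's adjusted p = 0.0461). This p was 0.0501 with a pseudocount of 0.1, 0.129 without limma's trend and 0.377 with no filter, and as low as 0.0250 with values rescaled by median ratios. Its exons overlap those of MRPS12 on the other strand. MRPS12, a decoding-centre protein, was at 188 and 174 with siCon and at 203 and 188 with siMYCN, and its log2 fold changes were 0.11 and 0.11 (adjusted p = 0.342 by limma). FARS2, the phenylalanyl-tRNA synthetase, had 0.37 and 0.32. Medians of the lists for assembly, tRNA synthetases and RNA processing were below 0 with either rescaling, between -0.052 and -0.018.

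Transcription regulators linked to mitochondrial genes had 0 called of 10 tested by limma, and a median of 0.018. With values rescaled by median ratios GABPA was called higher and MYCN lower, and without mitochondrial genome transcripts MYCN alone was called lower. At a mean of at least 20, without rescaling, GABPA (adjusted p = 0.0393 by limma) was called higher and MYCN (0.0441) lower. GABPA, an ETS factor known to act on promoters of mitochondrial genes, was at 29.6 and 23.0 with siCon and at 43.9 and 42.6 with siMYCN (log2 fold changes 0.55 and 0.86, adjusted p = 0.0520 by limma, from 0.0337 to 0.392 over the alternatives). MAX, the partner of MYC proteins on DNA, had 0.14 and 0.21, and MYC was at or near 0 in all 4 libraries, at 0.221 or less. The 13 mRNAs that the mitoribosome translates had a median of -0.14. MT-CO1, a core subunit of cytochrome c oxidase, was the 1 mRNA of the mitochondrial genome called. It fell by 0.33 and 0.22 on the log2 scale (limma's adjusted p = 0.0430), and the call was lost with no filter (1) and without limma's trend (0.235). With values rescaled by median ratios 9 of the 13 were called lower, and without mitochondrial genome transcripts 7. Over all tested genes, 408 of 9318 and 260 of 9319 were called lower with these rescalings.

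The most similar gene set, the cytosolic ribosomal proteins, gave other counts. Of 76 tested cytosolic genes, 25 (32.9%) were called higher and 0 lower by limma, against 0 of 73 and 0 of 73 mitochondrial genes, and their median was 0.25 against 0.039. At an unadjusted p under 0.05 in limma, 59.2% of the cytosolic and 15.1% of the mitochondrial genes passed. With values rescaled by median ratios the medians were 0.19 and -0.022, and without mitochondrial genome transcripts 0.19 and -0.018. The cytosolic genes called higher numbered 28 and 20 with these rescalings, and 0 with no filter or without limma's trend. The sets were not matched for level, and limma's trend lets the error vary with level. The 81 cytosolic genes summed to between 48360 and 59320 in a library, and the 77 members to between 6149 and 6446. The difference between the gene sets was not itself tested.

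**Figure D4:**
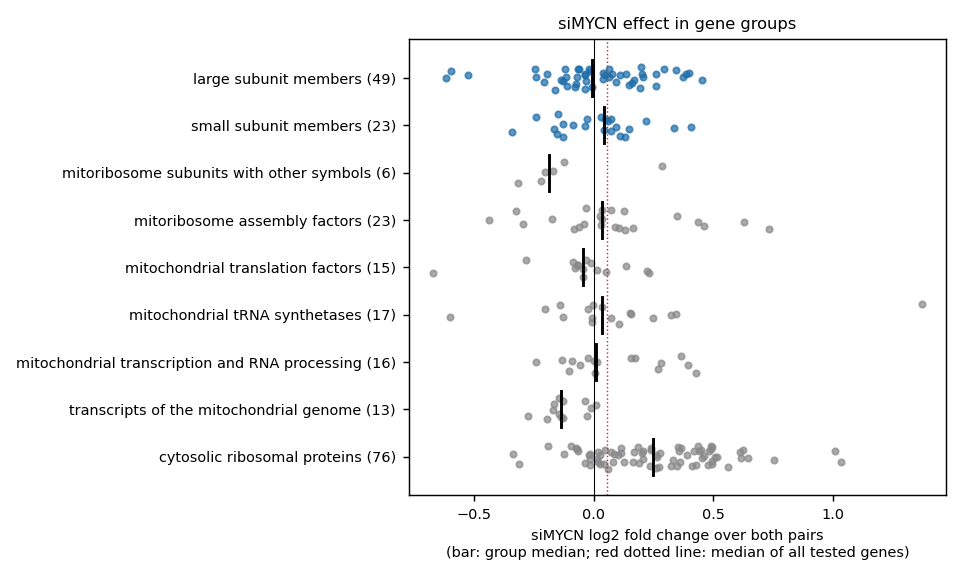
Log2 fold change with siMYCN over both pairs for each tested gene (points, spread vertically at random within a group), by gene group with the number of genes. Black bars are group medians, from -0.19 for the subunits with other symbols to 0.25 for cytosolic ribosomal proteins; members are in blue, and the red dotted line is the median of all tested genes, 0.056.

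The let-7a effect asks how these genes change when the mimic is added, once with siCon and once with siMYCN. Again no member passed the test, with 0 of 73 called higher and 0 lower by limma (0% of all tested genes in either direction), and 1 member, MRPL40, had an unadjusted p under 0.05 in limma (1.37%, background 7.48%). The smallest adjusted p of a member was 0.663. The median member was at -0.012 with siCon and -0.062 with siMYCN, beside -0.018 and -0.039 for all tested genes. In both pairs, 24 members (32.9%) were below 0 and 8 (11.0%) above 0, where 33.5% and 22.6% of all tested genes were.

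MRPL40, a protein of the central protuberance of the large subunit whose gene lies in the region deleted in DiGeorge syndrome (chromosome 22, 19431902 to 19436075, plus strand), was the 1 member at least 25% apart and lower with let-7a in both pairs (1.37%, background 2.03%). It was at 31.4, 21.1, 33.1 and 19.1 in the 4 libraries. Both let-7a libraries were below both miRCon libraries, as its choice by a fall in both pairs makes likely. Its log2 fold changes were -0.55 and -0.76, or -0.66 ± 0.13 over both (SE, n = 4 libraries, adjusted p = 0.663 by limma). The longest 3' UTR of MRPL40 held no seed match of 7 bases. MRPL40 has 1 annotated pseudogene copy. No member was at least 25% higher in both pairs (0, background 1.47%). At 1.1-fold, 2 members were higher (background 6.62%) and 3 lower (background 10.8%), and at 1.5-fold 0 were higher (background 0.204%) and 0 lower (background 0.257%).

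The other largest let-7a differences shared by the pairs were small. MRPL35 was at 32.7, 23.6, 34.0 and 30.1 (log2 fold changes -0.46 and -0.17). MRPS14, higher with siMYCN above, was lower with let-7a, at -0.28 and -0.22. MRPL22, a protein of the peptide tunnel, had -0.13 and -0.31, MRPS23 -0.13 and -0.16, and MRPS12 -0.12 and -0.12. On the higher side, MRPL11, at the base of the stalk, was at 59.7, 68.3, 61.6 and 73.7 (log2 fold changes 0.19 and 0.25). MRPS16, lower with siMYCN above, had 0.16 and 0.20, and MRPS9 had 0.15 and 0.14. MRPL52 (0.58 and 0.072), MRPL46 (0.15 and 0.034) and MRPL54 (0.026 and 0.038) differed mainly in 1 pair or hardly at all. Every one of these had an adjusted p of 0.663 or more by limma.

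Of the 4 genes with a seed match in the longest 3' UTR, 1 (MRPL42) was lower with let-7a in both pairs, as were 33.5% of all tested genes. The match of MRPL42 lies in a 3' UTR of 14992 bases and is absent from its transcript with the longest coding sequence. MRPS33, with the 8-base match, was at 12.2, 10.03, 9.91 and 14.2, with let-7a differences of -0.26 and 0.48 on the log2 scale. MRPS25 had -0.29 and 0.22. Both were lower with let-7a in siCon cells and higher in siMYCN cells. MRPL42 had -0.047 and -0.20, and MRPS11, under the filter, had 0.72 and 0.45. MRPL48, with a match in a shorter 3' UTR, had -0.14 and 0.65. With so few genes, no test was made.

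**Figure D5:**
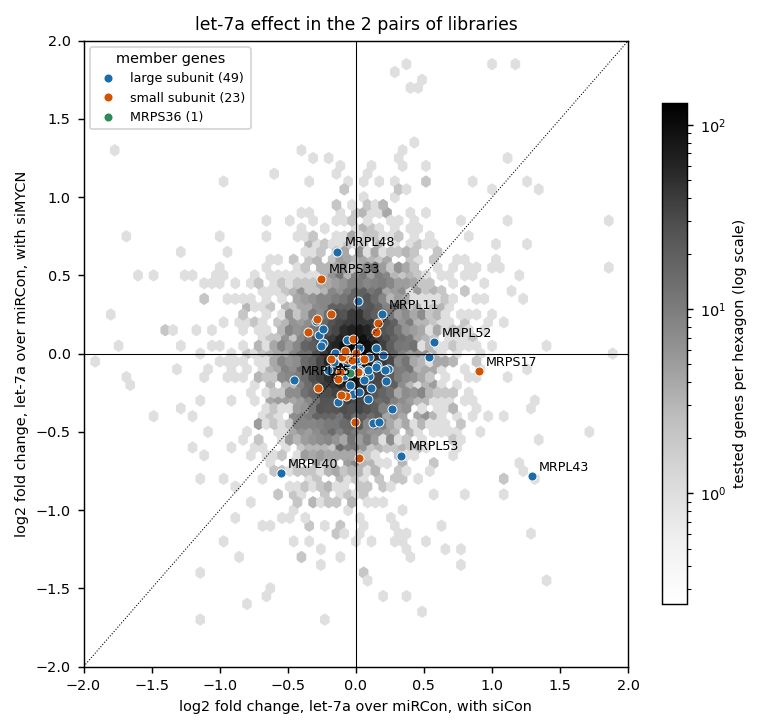
Log2 fold change with let-7a in the pair of libraries with siCon (horizontal) and in the pair with siMYCN (vertical), for all tested genes (grey hexagons; 9 lie outside the axes) and the 73 tested members (coloured by subunit). MRPL40 is the member farthest along the dotted line of equal effects on the lower side, while MRPL43, MRPS17, MRPL53, MRPL48 and MRPS33 lie off it.

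The let-7a effects of some members differed between the siRNA states. They were at least 1.5-fold apart for 8 of 73 members (11.0%, background 10.0%), 2 of them higher with siMYCN (background 4.60%) and 6 lower (background 5.43%). All 8 had a mean under 50, where they were 28.6% of 28 members against 13.4% of 6624 tested genes. The difference has no residual degree of freedom and no test. MRPL43 differed most, at 11.6, 29.9, 15.9 and 8.80, or log2 fold changes of 1.29 and -0.78. Its single high library was siCon with let-7a. MRPS17 was at 30.2, 57.2, 50.5 and 46.6 (0.90 and -0.11), with its low library being the one with both controls. MRPL53 was at 23.6, 29.98, 37.4 and 23.4 (0.33 and -0.65), and MRPL48 at 11.4, 10.3, 11.9 and 19.2 (-0.14 and 0.65). MRPS18C (0.026 and -0.67), MRPL27 (0.17 and -0.44), MRPL28 (0.26 and -0.36) and MRPS33 were the other members at least 1.5-fold apart, named after their values were seen. In MRPL48 the library with both treatments was the high one, and in MRPL53 the library with siMYCN alone.

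Exons of MRPL43 overlap SEMA4G and TWNK on the other strand, exons of MRPS17 overlap NIPSNAP2 on the same strand, and those of MRPL53 overlap CCDC142 on the same strand. MRPL48 overlaps no gene but has 1 annotated pseudogene copy. Of the 8 members, 7 had such an overlap or a pseudogene copy, as did 55 of all 73. The sources used here do not say how reads were assigned to such genes or whether strand was used, and the part of either in these values was not tested.

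With both treatments against neither, 1 library against 1, 5 of 73 members were at least 25% higher (6.85%, background 20.1%) and 6 were lower by the same fold (8.22%, background 16.7%). The higher ones were MRPL23, MRPL48, MRPL52, MRPL54 and MRPS17, and the lower ones MRPL2, MRPL24, MRPL40, MRPL43, MRPS15 and MRPS31, of which MRPL23, MRPS15 and MRPS31 were named after their values were seen. MRPL2 went from 55.1 to 32.1 (log2 fold change -0.76), MRPL40 from 31.4 to 19.1 (-0.69) and MRPL24 from 123 to 88.8 (-0.47). MRPL54 went from 76.6 to 102 (0.40). The median member was at -0.028, beside 0.028 for all tested genes. This comparison shares its libraries with those above and adds no separate support to them.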

How the data were processed

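The deposited table holds a natural log value per gene and library (19837 rows, 4 columns). The base was settled from the values, since exp(x) - 1 sums to between 855811 and 862049 in the 4 libraries, while base 2 would give totals from 143211 to 147588. The submitters' processing notes list HISAT 0.1.6, Salmon 0.3.2 and GRCh38 without saying what each was used for. Annotation, filters and the log step were not given in the sources used here. Rows for vector sequences (11) were set apart. Members were chosen by symbol, and the members and gene lists were chosen with earlier results of these data known.

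Genes with a mean of at least 5 over the 4 libraries (9324) were fitted with limma 3.58.1 (trend) in R 4.3.3 on log2(value + 1) as a sum of a siRNA term and a mimic term. What remains for error is 1 degree of freedom, which is the interaction, and limma adds 4.30 prior degrees of freedom from all genes, so p-values assume that the effects add. The pseudocount understates changes of low genes. P-values were adjusted by Benjamini-Hochberg over all tested genes, with a threshold of 0.05. The fit was also run on simulated data in which the effects added, so that run cannot check this assumption. Members at least 25% apart in both pairs (larger over smaller value + 1, same direction) were counted beside it. Named genes were members called by limma, for each treatment the 6 highest and 6 lowest with the same sign in both pairs, ranked by the pair with the smaller change, the 4 with the largest difference between the let-7a effects, the 5 highest and 3 lowest by mean, members under the filter, and the called or else up to 3 leading genes of each companion list. FARS2, MYC, MRPS36 and the genes printed for an E-box or seed match were added to these after their values were seen. A rescaling alternative divided each library by its median ratio to the geometric mean over genes, and another set equal totals without mitochondrial genome transcripts. Python 3.11.15 and pandas 2.3.3 were used for counts, GENCODE release 29 for positions and 3' UTRs, and RefSeq tables for promoters and let-7a. Some list genes are not reported here.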

Additional observations from a re-analysis of the deposited data

Results flagged for a closer look

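With 1 library a group, no library was compared with others of its group. Many members had let-7a effects of opposite sign in the siRNA states. Of 73 members, 24 (32.9%) were below 0 in both pairs, near the background of 33.5%, and 8 (11.0%) were above 0 in both (background 22.6%). The 2 effects were at least 1.5-fold apart for 11.0% of members, near the background of 10.0%. The 4 members with the largest differences are given here, and these differences were not tested. As the let-7a log2 fold change with siMYCN minus that with siCon, they were -2.07 for MRPL43, -1.01 for MRPS17, -0.99 for MRPL53 and 0.79 for MRPL48. They were picked as the largest such differences among 73 members.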

How the results depend on the processing

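Alternatives tried were a pseudocount of 0.1 or 5, a filter of none or of a mean of 20, both rescalings, limma without a trend and limma with robust variance. Of 24 named effects under these 8 alternatives, 187 values kept their direction and side of the threshold, 5 passed it where they had not, and 0 changed direction. Those 5 belong to MRPL24 (3), MRPS16 and MRPL2. The filter alternatives and both changes to limma leave the log2 fold change as it was, so direction could not change there. The named effects were also chosen for having the same sign in both pairs, which makes a change of direction unlikely. Members called lower with siMYCN numbered 0, and 1 at a mean of at least 20, 3 with median ratios and 1 without mitochondrial genome transcripts. The median siMYCN effect of 0.039 became -0.022 with median ratios and -0.027 in the pair with let-7a alone, where the pairs' medians had an SD of 0.0576. Members 25% higher with siMYCN (2) numbered 3 with no filter, 0 with either rescaling, 7 at 1.1-fold and 0 at 1.5-fold. Those 25% lower with siMYCN (2) numbered 3 with either rescaling, 1 with a pseudocount of 5, 4 at 1.1-fold and 0 at 1.5-fold. With let-7a, members higher (0) numbered 1 with no filter and 2 at 1.1-fold, and those lower (1) numbered 3 with no filter, 3 at 1.1-fold and 0 at 1.5-fold. No filter adds the members with a mean under 5. With 1 library in each group there were no replicates to pair. The additive fit compares the siRNAs within each mimic and the mimics within each siRNA. Leaving out a library was not run since it leaves no residual degree of freedom. With TPM-like values, depth is unknown and no counting error could be given.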
